A study of Acomys cahirinus and Mus musculus with 10 samples.

Results

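Ear tissue of the house mouse, *M. musculus*, at D10 after a 4-mm ear punch was compared here with uninjured ear tissue at D0. All 23114 genes of the deposited D10 comparison table were taken, of 24092 genes found in any of the 4 *M. musculus* tables (D5, D10, D15 and D20 against D0). The animals were sexually mature female CD1 mice, an outbred laboratory strain, with 3 animals at each time point. No genotype was altered. The punch was made under isoflurane, an inhaled anaesthetic, so anaesthesia and the 10 days that passed cannot be told apart from the injury. The D10 samples carry the label fibrotic ear tissue and the D0 samples the label uninjured ear tissue. The D10 RNA came from a ring of tissue taken about 1 mm proximal to the edge of the healing hole. The paper words the D0 collection the same way, although an uninjured ear has no healing edge. A difference in the region sampled therefore cannot be told apart from the injury. The table pools the 3 animals of a group and lists no animal on its own.

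The mouse ear is a thin fold of haired skin on both faces of a sheet of elastic cartilage, with fat, nerves and slips of skeletal muscle between. After a punch, keratinocytes cover the cut surface and switch on wound keratins. Macrophages and neutrophils clear debris, and fibroblasts lay down a matrix of fibronectin, tenascin and collagen. In *M. musculus* this matrix matures into scar. Hair follicles cycle between rest (telogen) and growth (anagen), and only growing follicles make hair keratins, so a skin sample also records the stage of its follicles.

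Of the 23114 genes, 3492 (15.1%) were called higher and 3250 (14.1%) lower at D10, or 29.2% in all. A call is a posterior probability of differential expression of at least 0.95, as given by the authors' EBSeq comparison of the 3 animals at D0 with the 3 at D10. Group means were solved from the table's pair of fold changes and are in normalized counts per library, which summed to 9409080 at D0 and 9400451 at D10. A log2 change is positive where a gene was higher at D10, and the error given with it is the counting error of both means and not the spread between animals, which the table does not give. The median log2 change was -0.07 over all genes and 0.02 over the 15754 genes with a mean of at least 10. Of the called genes, 1544 were higher and 1325 lower by a log2 change of at least 1, and 310 were higher and 170 lower by at least 3. A mean of 10 rests on 30 counts over a group, which gives it a counting error of 18.3%, and the depth of single libraries is not in the table. Gene numbers were turned into names for 21777 genes, including 95.9% of the called ones. The study's own list gives the number of some transcripts directly, and the other numbers were placed by the order of transcripts. All gene symbols came from matching the transcripts to the GENCODE mouse annotation. Genes said below to be named by the study's own list are those whose number it gives. At D0 the means held markers of the labelled tissue, with epidermal *Krt14* at 18029.9, dermal *Col1a1* at 9939, cartilage *Acan* at 4484 and muscle *Ttn* at 238058.

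**Figure D1:**
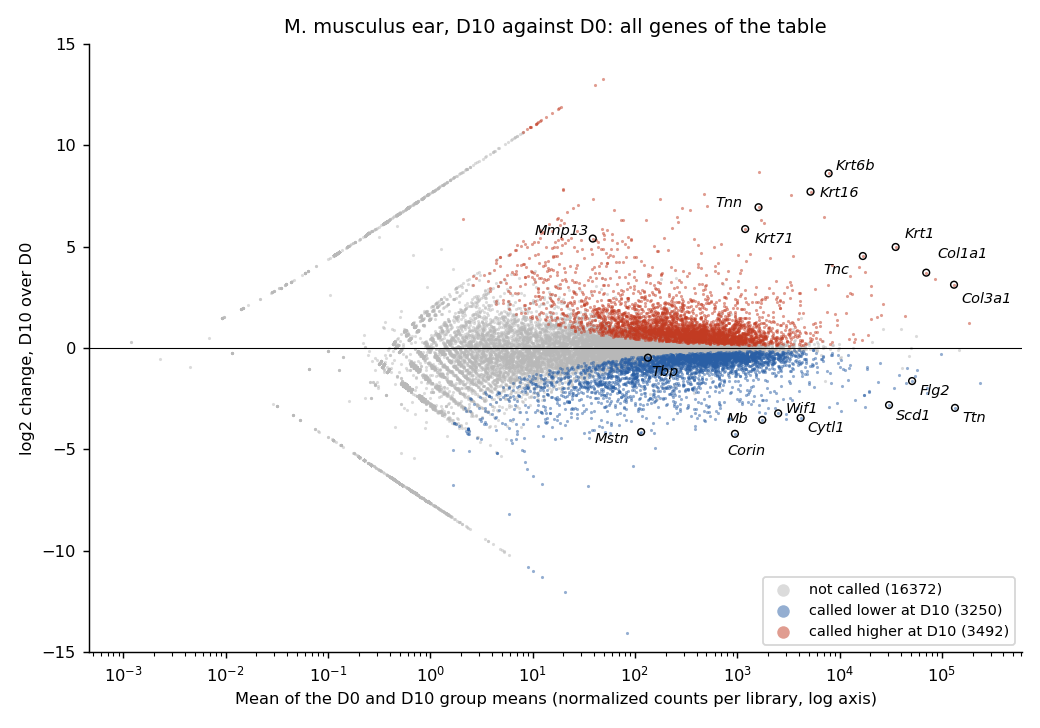
Log2 change at D10 over D0 (vertical axis) against the mean of the group means in normalized counts per library (horizontal, log axis) for all 23114 genes, coloured by call. The 3492 genes called higher reach above a log2 change of 8 at high counts (*Krt6b*), the muscle gene *Ttn* lies far right and below 0, and the straight outer lines are genes at 0 in a group.

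Many of the largest rises among well-counted genes were of epidermal genes. Of the 15 named genes with a mean of at least 100 and the largest called rise, *Krt6b*, *Krt16* and *Krt6a* are keratins of wounded and hyperproliferative epidermis. *Krt6b* rose from 39.7 to 15614, a log2 change of 8.62 ± 0.13. *Krt16*, its partner in the filament, rose from 49.4 to 10360.5 (7.71 ± 0.12). *Krt6a* rose from 157 to 13986 (6.48 ± 0.067). All 3 were called, and each rose by more than a log2 change of 6. In bulk tissue, more cells of a type and more RNA per cell cannot be told apart, here and in every list that follows. *Krt6a* (chromosome 15, 101689910 to 101694307 in GRCm38) and *Krt6b* (chromosome 15, 101676023 to 101680287) are neighbours so alike that 50.1% and 50% of their 50-base windows occur in no other gene, so counts may have been split between them. The name *Krt6a* rests on a placement probability of 0.909.

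The same group of 15 held 3 stefin A genes, small cysteine protease inhibitors clustered on chromosome 16: *BC100530* rose from 8 to 3293 (8.68 ± 0.29), the largest rise of the 15, *Stfa3* from 4.81 to 951 (7.62 ± 0.38) and *BC117090* from 4.84 to 576 (6.89 ± 0.38). *Rptn*, coding for repetin of the cornified envelope, rose from 35.5 to 6708 (7.56 ± 0.14), and *Sprr1b*, another envelope precursor, from 7.95 to 1009 (6.99 ± 0.30). *S100a9* and *S100a8*, the subunits of calprotectin made by neutrophils and stressed keratinocytes, rose from 6.23 to 688 (6.79 ± 0.34) and from 6.92 to 518 (6.22 ± 0.32). The remaining members were the matrix gene *Tnn* (tenascin W, from 26 to 3204, 6.95 ± 0.16), the metalloproteinase gene *Adamts16* (from 5.79 to 508, 6.45 ± 0.35), the fibroblast gene *Lrrc15* (from 42.4 to 3401, 6.33 ± 0.13), the hair keratin *Krt35* (from 3.24 to 255, 6.29 ± 0.47) and *2610528A11Rik* (from 2.13 to 348, 7.35 ± 0.57).

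The 15 largest falls, chosen the same way, were mostly of skeletal muscle genes. *Mybpc2* (fast myosin-binding protein C) fell from 722 to 45.4 (-3.99 ± 0.13) and *Mstn*, coding for the muscle growth inhibitor myostatin, from 218 to 12.3 (-4.14 ± 0.24). The muscle form of cytochrome oxidase subunit VIa, *Cox6a2*, fell from 272 to 16.5 (-4.04 ± 0.21). *Mb* (myoglobin) fell from 3238 to 278 (-3.54 ± 0.052), *Mylk2* (skeletal myosin light chain kinase) from 384 to 30.0 (-3.68 ± 0.16) and *Xirp2* from 5553 to 484 (-3.52 ± 0.039). The muscle ribosomal protein gene *Rpl3l*, the glycogen-targeting subunit gene *Ppp1r3a* and *Txlnb* fell (log2 changes of -3.68, -3.51 and -3.62). Outside muscle, *Corin*, a serine protease of the hair follicle dermal papilla and other tissues, fell from 1804 to 96.1 (-4.23 ± 0.087). *A2m*, the broad protease inhibitor alpha-2-macroglobulin, fell from 730 to 50.6 (-3.85 ± 0.12). *Serpina3j* and *Serpina3c* fell from 213 to 11.6 (-4.19 ± 0.25) and from 438 to 38.1 (-3.52 ± 0.14). The list of 15 closed with *3425401B19Rik* (from 879 to 76.1, -3.53 ± 0.10) and *Gm49450* (from 294 to 15.9, -4.20 ± 0.21), and no 50-base window of the latter is its own.

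**Figure D2:**
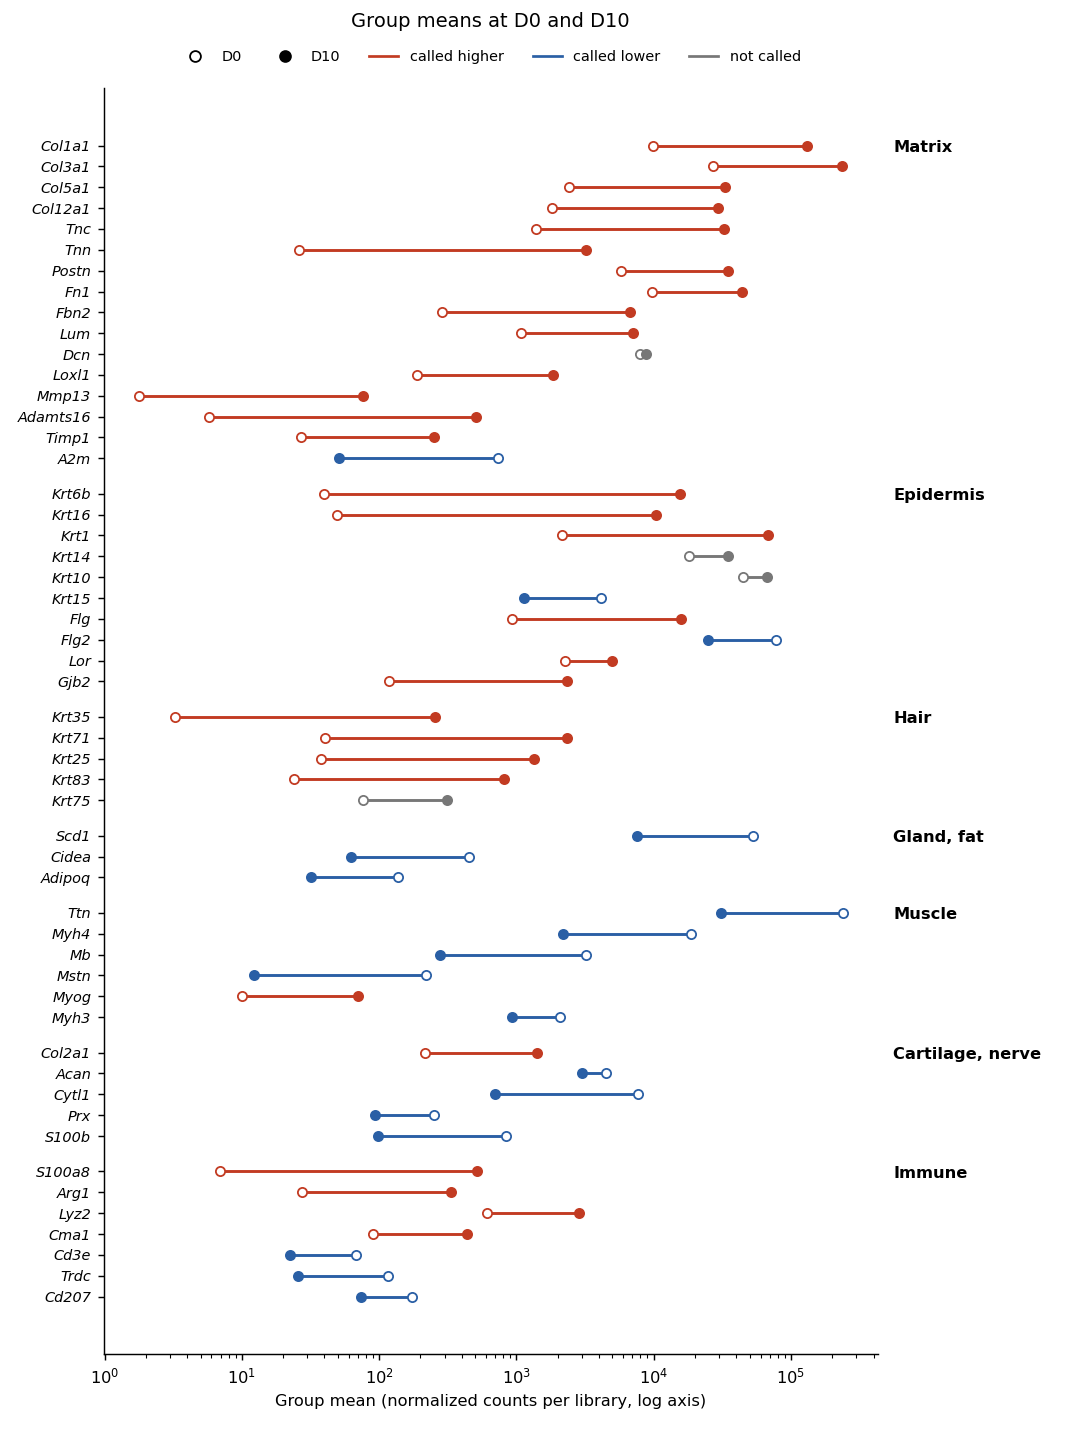
Group means at D0 (open) and D10 (filled) in normalized counts per library on a log axis for genes named in the text, with the line coloured by call. Most matrix, wound keratin and hair genes lie further right at D10 and gland, fat and most muscle genes further left (*A2m* and *Myog* are exceptions), while *Dcn*, *Krt14*, *Krt10* and *Krt75* were not called.

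Fibrillar collagens, which build the tensile fibres of dermis and scar, mostly rose. Of 11 measured genes, 9 were called higher, 1 lower and 1 neither, with a median log2 change of 2.71. *Col1a1* (chromosome 11, 94936224 to 94953042) rose from 9939 to 130848 (3.72 ± 0.0087) and its partner chain *Col1a2* from 14904 to 155951 (3.39 ± 0.0071). *Col3a1*, the collagen of early wound matrix (chromosome 1, 45311538 to 45349706), rose from 27084 to 236064 (3.12 ± 0.0053). The largest rise of the list was that of *Col5a1*, which sets fibril diameter, from 2436 to 33114 (3.76 ± 0.017). Collagen genes of this list took 0.647% of all normalized counts at D0 and 6.26% at D10. The cartilage collagen *Col2a1* was among those that rose, from 216 to 1415 (2.71 ± 0.061), while *Col11a2* had 488 at D0 and 369 at D10 and was not called. *Col27a1* fell from 2120.1 to 1258 (-0.75 ± 0.03).

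Other collagens moved both ways. 16 of 31 rose and 7 fell (median 0.99). The fibril-associated *Col12a1* rose most, from 1818 to 29237 (4.01 ± 0.02), and the 3 main collagen VI chains rose as well, with *Col6a3* from 4420.1 to 36317 (3.04 ± 0.013). Basement membrane chains divided by type. The widespread *Col4a1* and *Col4a2* rose, from 1068 to 6965 (2.71 ± 0.027) and from 953 to 4618 (2.28 ± 0.03). In contrast, *Col4a3*, *Col4a4*, *Col4a5* and *Col4a6* fell (log2 changes of -2.46, -2.0, -0.70 and -1.72). At the dermal-epidermal junction, the anchoring fibril collagen *Col7a1* rose from 1377 to 6873 (2.32 ± 0.025) and the hemidesmosome collagen *Col17a1* fell from 15190.5 to 7188 (-1.08 ± 0.012).

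Collagen folding and cross-linking enzymes rose in 22 of 27 cases and fell in 3 (median 1.32, or 2.36 over the 7 that the study's own list names). The prolyl hydroxylase *P4ha3* rose from 6.95 to 157 (4.49 ± 0.32), the collagen chaperone *Serpinh1* from 717 to 4159.9 (2.54 ± 0.034), and the cross-linking oxidases *Lox*, *Loxl1* and *Loxl2* by 2.33, 3.29 and 2.85 on the log2 scale. Another oxidase of the same family, *Loxl4*, fell from 2141 to 479.7 (-2.16 ± 0.042). *P4hb*, shared by all collagen prolyl hydroxylases, rose from 2137 to 5724 (1.42 ± 0.021). *Pcolce2* and *Adamts14*, which act on procollagen ends, also fell (-1.71 ± 0.067 and -0.72 ± 0.043).

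Genes of the provisional and matricellular matrix, proteins that guide cells more than they bear load, rose in 19 of 28 cases and fell in 3 (median 1.92). *Tnc* (tenascin C) rose from 1393 to 32404 (4.54 ± 0.023), *Fn1* (fibronectin) from 9751 to 43785 (2.17 ± 0.0093) and *Postn* (periostin) from 5739 to 34977 (2.61 ± 0.012). *Ccn4* rose from 36.1 to 1141 (4.98 ± 0.14) and *Cthrc1*, a marker of activated fibroblasts, from 48.6 to 783 (4.01 ± 0.12). *Ccn2*, often measured as a target of TGF-beta, instead fell from 2512 to 1164 (-1.11 ± 0.03), and *Ccn1* was at 284 at D0 and 385 at D10 and was not called. *Thbs1* had 4045 at D0 and 3696 at D10 and was not called, whereas *Thbs2*, *Thbs3* and *Thbs4* rose (log2 changes of 2.46, 2.0 and 2.30). *Sparcl1* and *Efemp1* also fell (-1.09 ± 0.03 and -1.31 ± 0.07).

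Elastic fibre genes rose in 10 of 11 cases (median 1.93), led by the fetal fibrillin *Fbn2*, from 286 to 6777 (4.56 ± 0.05). *Fbn1* rose from 3367 to 21853 (2.70 ± 0.015), elastin itself, *Eln*, from 1859.7 to 6206 (1.74 ± 0.022), and *Ltbp4* fell from 1834 to 1472 (-0.32 ± 0.029). The small leucine-rich proteoglycans, which space collagen fibrils, split evenly, with 6 higher and 6 lower of 14 (median 0.13). *Lum* rose from 1088 to 7066 (2.70 ± 0.027) and *Bgn* from 5827 to 12937 (1.15 ± 0.013). *Dcn*, the main dermal decorin, was at 7975 at D0 and 8849 at D10 and was not called. *Omd* fell from 1173 to 128 (-3.20 ± 0.078) and *Chad*, best known from cartilage, from 1208 to 154 (-2.97 ± 0.071).

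Matrix-degrading enzymes rose in 20 of 26 cases and fell in 1 (median 1.89). After *Adamts16*, the largest rises were those of *Adam12* (from 49.9 to 3591, 6.17 ± 0.12) and the collagenase *Mmp13* (from 1.78 to 75.7, 5.40 ± 0.63). The gelatinase *Mmp2* rose from 2027 to 6676 (1.72 ± 0.021) and the membrane-bound *Mmp14* from 752 to 4962 (2.72 ± 0.033). The other gelatinase, *Mmp9*, rose from 117 to 446 (1.93 ± 0.087), with its name at a placement probability of 0.852. The neutrophil collagenase *Mmp8* was at 3.83 in both groups, and the macrophage elastase *Mmp12* fell from 994 to 679 (-0.55 ± 0.041). Inhibitors were divided: *Timp1* rose from 26.8 to 252 (3.23 ± 0.17) and *Timp2* from 2936 to 5976 (1.03 ± 0.019), while *Timp3* fell from 6475 to 2702 (-1.26 ± 0.019) and *Timp4* from 94.9 to 17.1 (-2.48 ± 0.22). Of 12 inhibitor and plasminogen genes, 7 rose and 5 fell (median 0.62, or -0.83 for the 1 that the study's own list names). Hyaluronan genes rose in 7 of 12 cases and fell in 2 (median 0.92, or 1.71 over the 2 that the study's own list names), with the synthase *Has2* from 115 to 549 (2.26 ± 0.085), the cross-linker gene *Tnfaip6* from 43.7 to 271 (2.63 ± 0.14) and the receptor gene *Cd44* from 1671 to 3728 (1.16 ± 0.025).

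Among 31 integrins, laminins and nidogens, 15 rose and 7 fell (median 0.25). The collagen receptor of fibroblasts *Itga11* rose most, from 93.2 to 821 (3.14 ± 0.091), with the fibronectin receptor *Itga5* from 163 to 842 (2.37 ± 0.071) and the laminin chain *Lamb1* from 552 to 2965 (2.42 ± 0.039). *Lama3* and *Lamb3*, laminin chains of the epidermal basement membrane, fell (log2 changes of -0.43 and -0.32). *Itgb4* of the hemidesmosome fell from 2554 to 1925 (-0.41 ± 0.025), and *Itgb6*, an epithelial activator of TGF-beta, from 261 to 127 (-1.03 ± 0.09).

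**Figure D3:**
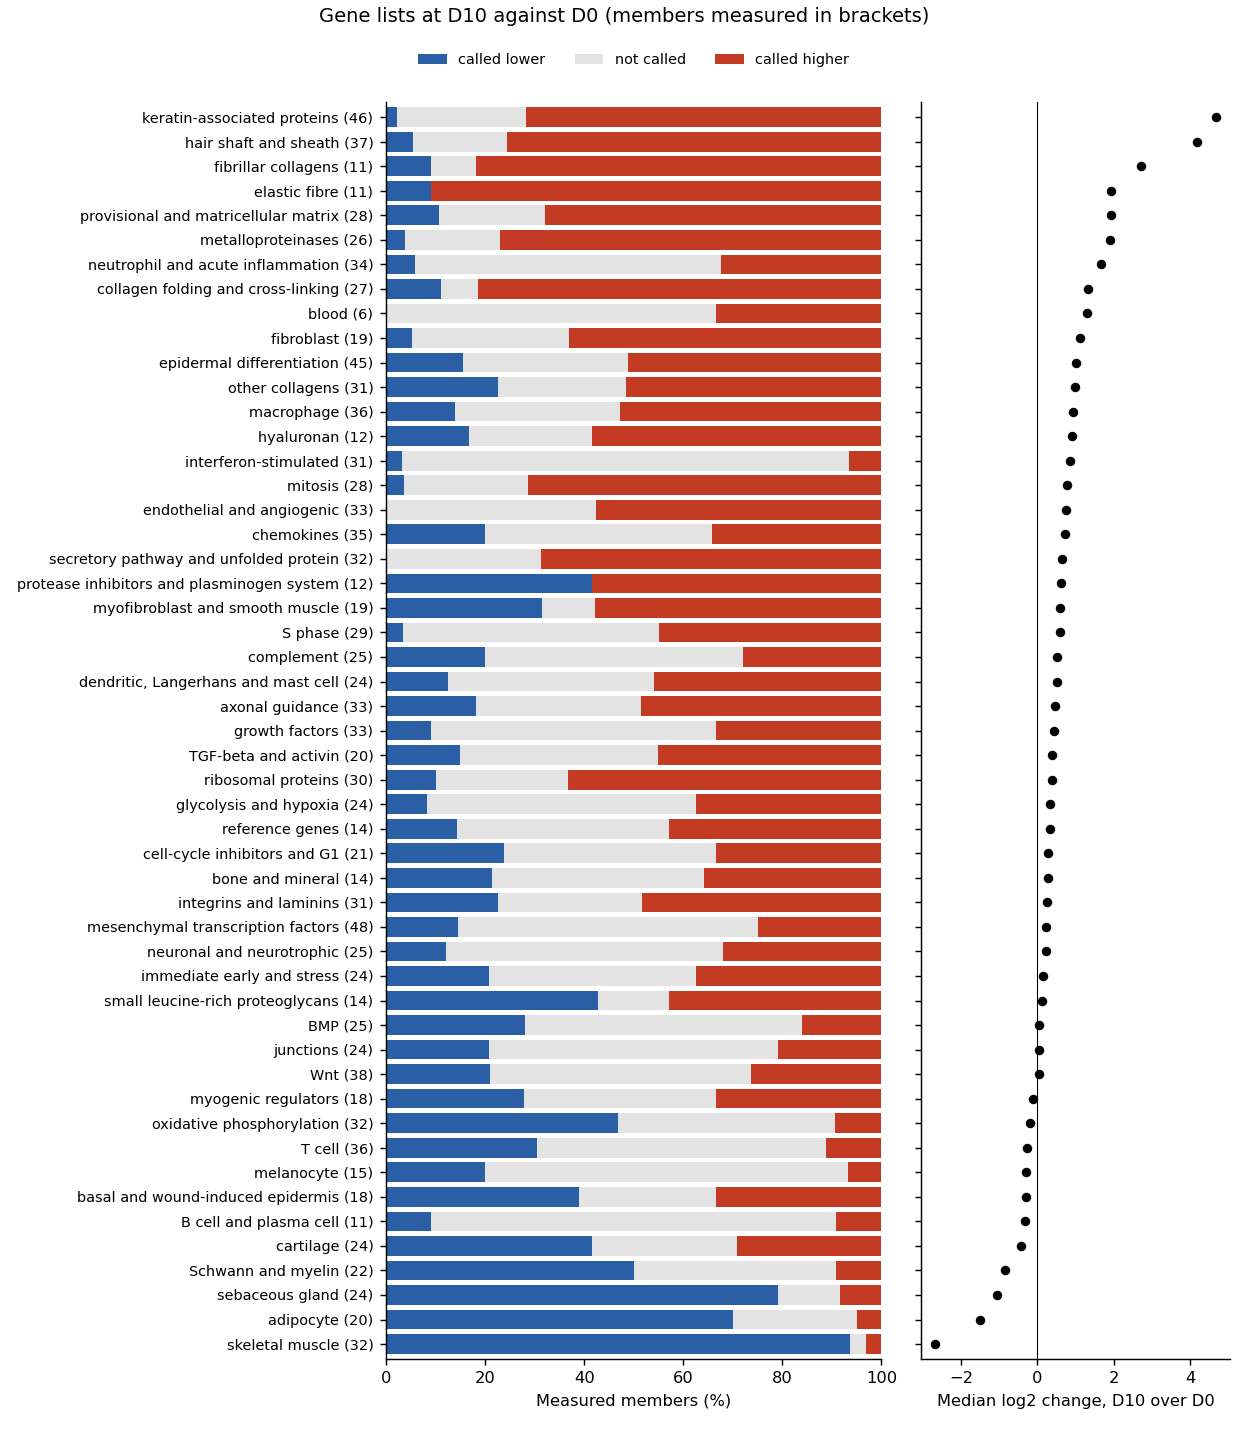
Share of measured members called lower, not called and called higher in each gene list (left, percent) and the list's median log2 change at D10 over D0 (right). Hair and keratin-associated lists have the highest medians, followed by the fibrillar collagen, elastic fibre and provisional matrix lists, and skeletal muscle, fat and sebaceous gland lists have the lowest; over all 23114 genes 15.1% were called higher and 14.1% lower.

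Fibroblast genes rose in 12 of 19 cases and fell in 1 (median 1.11). *Pdgfra*, a general marker of dermal fibroblasts, rose from 1024 to 2413 (1.24 ± 0.031) and *Crabp1* from 32.1 to 457 (3.83 ± 0.15). *Thy1* was at 719 at D0 and 799 at D10 and *Pi16* at 324 at D0 and 231 at D10, and neither was called. Of 19 contractile genes, 11 rose and 6 fell (median 0.61, or 1.46 over the 2 that the study's own list names). *Acta2*, the smooth muscle actin that marks myofibroblasts, rose from 264 to 1233 (2.22 ± 0.057), *Tagln* from 129 to 516 (2.0 ± 0.082) and the cadherin gene *Cdh11* from 339.6 to 2719 (3.0 ± 0.048). *Myh11*, the myosin of vessel muscle, was at 254 at D0 and 240.3 at D10 and was not called. The 6 genes that fell, *Tpm1*, *Tpm2*, *Des*, *Pdlim3*, *Lmod1* and *Synpo2*, are also expressed in striated muscle, whose own genes fell as described below, and the part of striated muscle in their fall was not tested.

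Of 20 TGF-beta and activin genes, 9 rose and 3 fell (median 0.40). Among ligands, *Tgfb3* rose from 458 to 2096 (2.19 ± 0.043) and *Tgfb1* from 138 to 283 (1.04 ± 0.087), and *Tgfb2* was at 442 at D0 and 488 at D10, not called. The receptors *Tgfbr1* and *Tgfbr2* rose (log2 changes of 0.74 and 1.18). *Lrrc32*, which tethers latent TGF-beta to the cell surface, rose from 158 to 719 (2.19 ± 0.073), and the activin-binding *Fstl1* rose most, from 1615 to 13966 (3.11 ± 0.022). The signal transducer *Smad2* was at 859 at D0 and 891 at D10 and *Smad3* at 583 at D0 and 514 at D10, and neither was called.

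Of 25 BMP pathway genes, 4 were higher, 7 lower and 14 not called (median 0.04, or -0.15 over the 3 that the study's own list names). The ligands *Bmp4* and *Bmp5* fell (log2 changes of -1.07 and -0.90). Antagonists went apart, since *Grem1* and *Chrd* rose (log2 changes of 1.05 and 1.54) and *Nog* fell from 66.4 to 18.5 (-1.84 ± 0.22). In the Wnt list, 10 of 38 rose and 8 fell (median 0.03, or 1.68 over the 3 that the study's own list names). Secreted Wnt binders moved furthest in both directions: *Sfrp2* rose from 139.5 to 2016 (3.85 ± 0.073), and *Wif1* fell from 4541 to 487 (-3.22 ± 0.04), *Frzb* from 667 to 82.3 (-3.02 ± 0.10) and *Sfrp5* from 108 to 5.99 (-4.18 ± 0.35). *Wnt5a* rose from 181 to 691 (1.93 ± 0.07). *Axin2*, a common readout of canonical Wnt signalling, fell from 812 to 436 (-0.90 ± 0.049), and *Lef1* was at 71.2 at D0 and 85.3 at D10 and was not called.

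Other growth factor genes rose in 11 of 33 cases and fell in 3 (median 0.44). *Igf1* rose from 856 to 4063 (2.25 ± 0.031), *Igf2* from 388 to 1313 (1.76 ± 0.048) and *Nrg1* from 38.1 to 285 (2.90 ± 0.14). *Fgf1* fell from 268 to 42.3 (-2.66 ± 0.14) and *Btc* from 158 to 43.9 (-1.84 ± 0.14). *Fgf7*, the keratinocyte growth factor, was at 152 at D0 and 176 at D10 and was not called.

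The keratins of basal epidermal cells were not called. *Krt14* was at 18029.9 at D0 and 34795 at D10, with a posterior probability of 0.52. Its partner *Krt5* was at 18923 at D0 and 22889 at D10 (0.10), with its name at a placement probability of 0.864. The bulge keratin *Krt15* fell from 4158 to 1143 (-1.86 ± 0.028), and *Trp63*, which keeps epidermal stem cells, from 3606 to 1804 (-1.0 ± 0.024). *Krt17* rose from 713 to 1592 (1.16 ± 0.038). Over the basal and wound-induced list, 6 of 18 rose and 7 fell (median -0.30, or 0.56 over the 2 that the study's own list names).

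Of 45 differentiation genes, 23 rose and 7 fell (median 1.02, or 0.028 over the 5 that the study's own list names). *Krt1* rose from 2163 to 68549.7 (4.99 ± 0.018), while its filament partner *Krt10* was at 44948 at D0 and 66785 at D10 and was not called. Another type II keratin of the upper epidermis, *Krt2* (placement probability 0.905), was at 54498 at D0 and 27932 at D10 and was not called, and *Krt77* fell from 2186 to 342 (-2.68 ± 0.048). Filaggrin genes moved in opposite directions, *Flg* rising from 934 to 15860.5 (4.09 ± 0.028) and *Flg2* falling from 77341 to 25025 (-1.63 ± 0.0061). The late envelope genes of the LCE3 group had means under 3 at D0, with *Lce3f* at 0.164 at D0 and 39.5 at D10, and 52% of the 50-base windows of *Lce3f* are its own. Of the LCE1 genes, *Lce1f* and *Lce1g* rose (log2 changes of 1.02 and 1.06), and *Lce1a1*, *Lce1b*, *Lce1c* and *Lce1d* were not called. *Lor* (loricrin) rose from 2250.5 to 5000 (1.15 ± 0.021), and *Ivl* (involucrin) was at 358 at D0 and 498 at D10, not called.

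Of 24 junction genes, 5 were higher, 5 lower and 14 not called (median 0.03, or -0.11 over the 6 that the study's own list names). 3 of the 5 genes that rose code for connexins. *Gjb2* (connexin 26) rose from 118 to 2339 (4.31 ± 0.079), *Gjb6* (connexin 30) from 9.2 to 301 (5.03 ± 0.28) and *Gja1* (connexin 43) from 834 to 4372 (2.39 ± 0.031). *Gjb5* was not called. Of the tight junction genes, *Ocln* fell from 311 to 128 (-1.28 ± 0.087) and *Cldn1* from 1884 to 1115 (-0.76 ± 0.031).

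Hair genes had the highest medians of all 52 lists. Of 37 hair shaft and root sheath genes, 28 were higher and 2 lower (median 4.17, or 4.0 with means under 1 set to 1). The study's own list names only 2 of these genes, with a median of 0.70. The inner root sheath keratins *Krt71* and *Krt25* rose from 40.2 to 2352 (5.87 ± 0.13) and from 37.5 to 1336 (5.16 ± 0.14), the shaft keratins *Krt33b* and *Krt83* from 1.12 to 125 (6.79 ± 0.79) and from 24.2 to 808 (5.06 ± 0.17), and the peptidylarginine deiminase of the sheath, *Padi3*, from 3.57 to 129.6 (5.18 ± 0.45). The companion layer keratin *Krt75* was at 76.3 at D0 and 312 at D10 and missed the call at a posterior probability of 0.87. Regulators of the follicle gave mixed values. *Shh*, which drives follicle growth, was at 0.531 at D0 and 9.02 at D10 and was called, *Hoxc13* at 36.8 at D0 and 50.4 at D10 and *Foxn1* at 150.3 at D0 and 125 at D10 were not, and *Gata3* and *Msx2* fell (log2 changes of -1.59 and -0.90). All 37 genes took 0.0333% of normalized counts at D0 and 0.115% at D10. The names *Krt71*, *Krt72* and *Krt73* have placement probabilities of 0.819, 0.815 and 0.86.

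Keratin-associated proteins, the sulphur-rich filler of the hair cortex, went the same way. Of 46 measured genes, 33 were called higher and 1 lower (median 4.68, or 4.04 with means under 1 set to 1). 7 of them were at 0 at D0. *Krtap5-4* went from 0 to 36.6, at least 36.6-fold higher against 3 counts over the group. *Krtap8-1* rose from 1.89 to 95.5 (5.66 ± 0.61) and *Krtap7-1* from 5.47 to 100.4 (4.19 ± 0.37). The gene that fell, *Krtap3-2*, also had the most counts at D0, from 183 to 57.2 (-1.68 ± 0.13), and 71.1% of its windows are its own.

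The D10 values of wound and hair genes can be set beside those of the other days. In the other 3 comparisons, which use the same D0 animals, *Krt6b* had a log2 change of 10.80 at D5, 7.16 at D15 and 3.14 at D20, beside 8.62 at D10. *S100a9* had 8.85, 6.59 and 1.51, beside 6.79. *Krt71* had -0.49 at D5 and then 7.52 and 7.86, beside 5.87 at D10. The median of the hair list, taken from D5 to D20 in order, was -0.45, 4.17, 6.23 and 6.40. For *Krt6b* and *S100a9* the D10 value lay below that of D5, and for *Krt71* below those of D15 and D20.

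**Figure D4:**
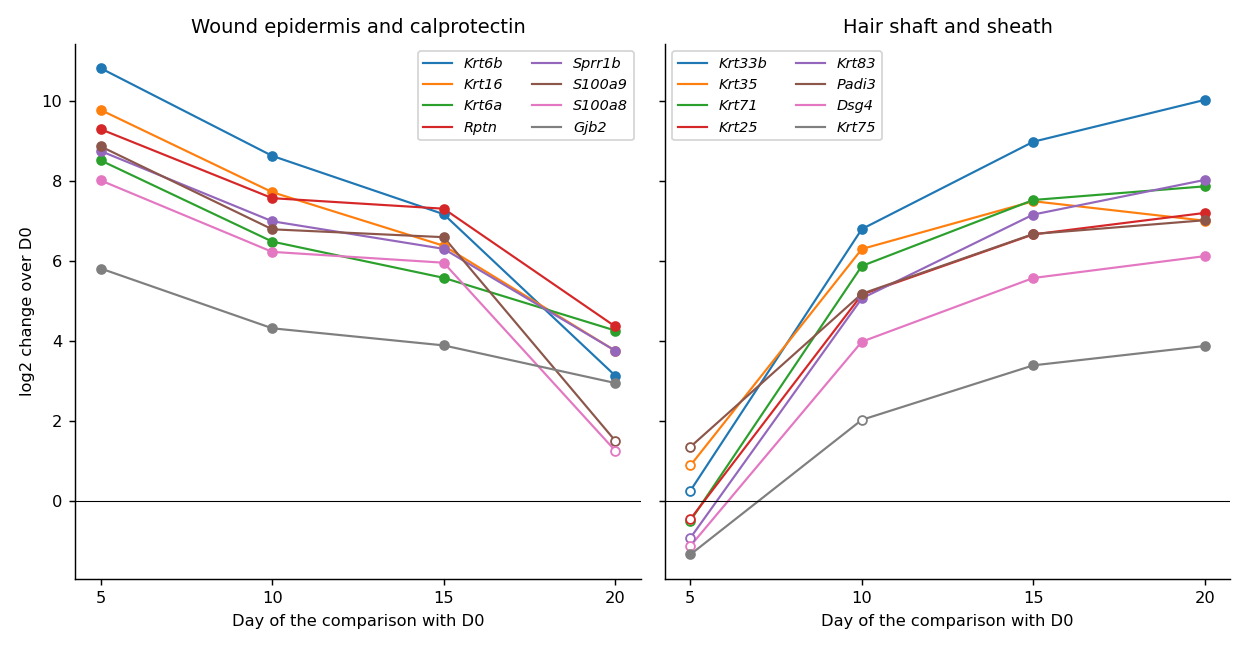
Log2 change over D0 of wound epidermis and calprotectin genes (left) and hair genes (right) in the D5, D10, D15 and D20 comparisons (horizontal axis, days), with filled points called and open points not called. The wound genes are highest at D5 and lower by D20, and the hair genes are at or below a log2 change of 1.36 at D5 and above 2 from D10 on.

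Of 15 melanocyte genes, 1 rose, 3 fell and 11 were not called (median -0.30, or 0.64 for the 1 that the study's own list names), a share of calls near the 29.2% over all genes. The pigment enzyme genes *Tyr* and *Dct* were at 199 at D0 and 162 at D10 and at 168 at D0 and 104 at D10, not called, and *Tyrp1* fell from 205 to 76.5 (-1.42 ± 0.11). *Kit*, which mast cells also express, rose from 168 to 261 (0.64 ± 0.082). CD1 mice are albino.

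Sebaceous gland genes fell in 19 of 24 cases and rose in 2 (median -1.05). *Scd1*, a fatty acid desaturase with high expression in sebocytes, fell from 53343 to 7592 (-2.81 ± 0.01), which took it from 11028 to 1569 counts per kilobase of transcript. *Cidea* fell from 453 to 62.6 (-2.86 ± 0.11), *Elovl6* from 6466 to 1501 (-2.11 ± 0.024) and the wax alcohol gene *Far2* from 2956 to 498 (-2.57 ± 0.04). The general lipid enzyme *Fasn* fell less, from 4784 to 3853 (-0.31 ± 0.018). Adipocyte genes fell in 14 of 20 cases and rose in 1 (median -1.49). *Adipoq* (adiponectin) fell from 138 to 31.7 (-2.12 ± 0.16), *Plin4* from 1795 to 315 (-2.51 ± 0.051) and *Cfd* (adipsin) from 136 to 23.8 (-2.52 ± 0.19). *Pparg*, shared by fat and sebaceous gland, fell from 181 to 50.2 (-1.85 ± 0.13), and *Cebpa*, which keratinocytes also express, rose from 1069 to 1445 (0.43 ± 0.034).

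Skeletal muscle genes mostly fell. 30 of 32 were called lower (median -2.68), and the list took 4.11% of all normalized counts at D0 and 0.57% at D10. Titin, *Ttn* (chromosome 2, 76703980 to 76982547), fell from 238058 to 30746 (-2.95 ± 0.005), the fast myosin *Myh4* from 18671 to 2173 (-3.10 ± 0.019) and nebulin, *Neb*, from 31155 to 4109.9 (-2.92 ± 0.014). The exceptions were *Tnnc1*, which rose from 21.8 to 80.3 (1.88 ± 0.20), and *Tnni1* at 60.5 at D0 and 101 at D10, not called. Both code for troponin subunits of slow muscle, and the third slow subunit, *Tnnt1*, fell from 863 to 124 (-2.80 ± 0.08). Creatine kinase, *Ckm*, fell from 4158 to 534 (-2.96 ± 0.038) and the skeletal actin *Acta1* from 7819 to 2290.3 (-1.77 ± 0.02).

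Myogenic genes went both ways. Of 18, 6 rose and 5 fell (median -0.12, or 0.078 over the 17 with a mean of at least 10). *Myog* (myogenin), which drives myoblast differentiation, rose from 10.1 to 70.3 (2.80 ± 0.28), the myoblast fusion gene *Mymk* from 0.851 to 32.6 and the fetal acetylcholine receptor subunit *Chrng* from 4.47 to 25.1 (2.49 ± 0.43). The perinatal myosin *Myh8* rose from 421 to 1089.9 (1.37 ± 0.048), but the embryonic *Myh3* fell from 2075 to 926 (-1.16 ± 0.033). *Pax7*, which marks satellite cells, fell from 24.8 to 1.96 (-3.65 ± 0.62). *Myod1* and *Myf5* were at 23.5 at D0 and 18.8 at D10 and at 5.69 at D0 and 3.74 at D10, and neither was called. *Myog* had a log2 change of 3.45 at D5, 1.49 at D15 and 0.21 at D20.

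Of 32 oxidative phosphorylation genes, 3 rose and 15 fell (median -0.19, or -0.83 over the 4 that the study's own list names). The 3 muscle subunits *Cox6a2*, *Cox7a1* and *Cox8b* fell (log2 changes of -4.04, -3.33 and -3.01). *Ppargc1a*, a driver of mitochondrial biogenesis, fell from 193 to 24.5 (-2.98 ± 0.18), while the widespread *Cox6a1* rose from 354 to 514 (0.54 ± 0.058). Of 24 glycolysis and hypoxia genes, 9 rose and 2 fell (median 0.32). *Pfkl* rose from 212 to 549 (1.37 ± 0.067) and its muscle counterpart *Pfkm* fell from 2159 to 573 (-1.92 ± 0.039). *Ldha* rose from 1717 to 3182 (0.89 ± 0.025), and *Vegfa* and *Car9*, targets of hypoxia, were at 337 at D0 and 425 at D10 and at 18.4 at D0 and 22.7 at D10, not called. All 7 named genes of the mitochondrial chromosome fell, with a median log2 change of -1.98, and their share went from 3.72% to 0.961% of normalized counts. Entries without a name are not in this share. The unnamed entry with the most counts fell from 361131 to 111128 (-1.70 ± 0.0029), and its chromosome was not determined. *mt-Co1* fell from 114388 to 29050.4 (-1.98 ± 0.0055) and the 12S ribosomal RNA *mt-Rnr1* from 67634 to 20661 (-1.71 ± 0.0066), beside the median of -0.19 for the oxidative phosphorylation list.

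Cartilage genes fell in 10 and rose in 7 of 24 cases (median -0.44, or 0.056 over the 7 that the study's own list names). *Cytl1*, a secreted product of chondrocytes, fell from 7632 to 699 (-3.45 ± 0.033), *Sox9* from 677 to 321 (-1.07 ± 0.056) and *Acan* (aggrecan) from 4484 to 2988 (-0.59 ± 0.02). *Col2a1*, *Matn3* and *Matn4* rose (log2 changes of 2.71, 1.90 and 2.43), and the collagen IX chains *Col9a1*, *Col9a2* and *Col9a3* were not called. Bone and mineral genes gave 5 higher and 3 lower of 14 (median 0.27, or -0.49 over the 3 that the study's own list names). *Runx2* rose from 77.9 to 304 (1.96 ± 0.11) and *Ptn* from 62.9 to 213 (1.76 ± 0.12), while *Sp7*, needed for osteoblasts, was at 2.1 at D0 and 1.9 at D10 and *Ibsp* at 4.92 at D0 and 1.17 at D10, not called.

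Schwann cell genes fell more often than they rose. Of 22 Schwann cell genes, 11 were lower and 2 higher (median -0.83, or -0.11 over the 4 that the study's own list names). *Prx*, a protein of peripheral myelin, fell from 252 to 93.4 (-1.43 ± 0.10) and *S100b* from 845 to 98.3 (-3.10 ± 0.089). *Sox10*, which marks the Schwann and pigment lineages at all stages, was at 40.1 at D0 and 53.3 at D10 and was not called. *Ncam1* rose from 330.2 to 1090.2 (1.72 ± 0.052) and *Gap43* from 31.1 to 56.1 (0.85 ± 0.19). Neuronal and neurotrophic genes rose in 8 of 25 cases and fell in 3 (median 0.22), with *Tubb3* from 9.57 to 105 (3.46 ± 0.28). Proenkephalin, *Penk*, fell from 1041 to 290 (-1.84 ± 0.055). The axonal filament genes *Nefl*, *Nefm* and *Nefh* had means of at most 5.22 in both groups. Axon guidance genes rose in 16 of 33 cases and fell in 6 (median 0.47), with *Ephb2* from 111 to 488 (2.14 ± 0.088) and *Sema3d* falling from 3432 to 769 (-2.16 ± 0.033).

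Macrophage genes rose in 19 of 36 cases and fell in 5 (median 0.92, or -0.072 over the 2 that the study's own list names). *Lyz2* (lysozyme M) rose from 613 to 2837 (2.21 ± 0.037), the scavenger receptor gene *Msr1* from 26 to 145 (2.48 ± 0.18), *Trem2* from 7.04 to 76.5 (3.44 ± 0.33) and *Arg1*, a marker of repair macrophages, from 27.3 to 335 (3.62 ± 0.17). *Adgre1*, which codes for F4/80, rose from 161 to 366 (1.19 ± 0.079) and *Csf1r* from 718 to 1244 (0.79 ± 0.039). The markers of resident macrophages *Cd163* and *Folr2* were at 281 at D0 and 224 at D10 and at 32.7 at D0 and 45.9 at D10, not called, and *Retnla* fell from 42.9 to 5.56 (-2.94 ± 0.38).

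Part of the neutrophil and acute inflammation list rose. 11 of 34 rose, 2 fell and 21 were not called (median 1.67, or 1.11 with means under 1 set to 1). *Cxcl5* was at 0.4 at D0 and 54.6 at D10 and *Cxcl2*, which draws neutrophils, at 0.4 at D0 and 13.8 at D10, both called. *Trem1* and *Saa3* were at 0 at D0 and at 19.2 and 24.3 at D10, also called. *Il1b* was at 7.85 at D0 and 87.1 at D10, with a posterior probability of 0.93. The granule genes *Ltf*, *Camp* and *Ngp*, made by neutrophil precursors in marrow, stayed under 2 counts in both groups, and *Mpo* fell from 19.7 to 4.99 (-1.98 ± 0.42). *Il1a* fell from 142 to 60.2 (-1.24 ± 0.13).

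Chemokine genes rose in 12 of 35 cases and fell in 7 (median 0.71). The monocyte attractants *Ccl2*, *Ccl7* and *Ccl8* rose (log2 changes of 2.75, 1.61 and 2.50), and the receptor *Ccr1* from 4.76 to 88.6 (4.22 ± 0.39). *Cxcl12*, with the most counts of the list, rose from 616 to 1741 (1.50 ± 0.039). Keratinocyte *Ccl27a* fell from 77.5 to 15.4 (-2.33 ± 0.23), *Ccl11* from 92.3 to 23 (-2.0 ± 0.19) and the scavenging receptor *Ackr4* from 461 to 135 (-1.77 ± 0.082).

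T cell genes fell more often than they rose, in 11 against 4 of 36 cases (median -0.26). The genes that fell include those of the gamma-delta T cells that live in mouse epidermis. *Trdc*, the constant segment of the delta chain, fell from 115 to 25.7 (-2.16 ± 0.18), *Tcrg-C1* of the gamma chain from 34.9 to 6.52 (-2.42 ± 0.36), *Cd3e* from 67.9 to 22.3 (-1.61 ± 0.20) and *Cd7* from 70.6 to 20.3 (-1.80 ± 0.21). *Cd4* rose from 40.3 to 154 (1.93 ± 0.15), *Icos* from 8.91 to 41.7 (2.23 ± 0.31) and *Cd6* from 1.75 to 26.8 (3.92 ± 0.65), and *Trbc1* of the beta chain from 46.6 to 84.8 (0.87 ± 0.15), with 42.4% of its windows its own. *Foxp3*, which marks regulatory T cells, was at 32.1 at D0 and 35.3 at D10 and *Cd8a* at 26.1 at D0 and 20.9 at D10, not called. *Gata3*, which skin epithelium also expresses, fell (log2 change of -1.59). B cell genes had few counts, with 1 higher and 1 lower of 11 (median -0.32, or 0.0 with means under 1 set to 1).

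Of 24 dendritic, Langerhans and mast cell genes, 11 rose and 3 fell (median 0.51). The mast cell proteases rose: *Cma1* from 89.8 to 434 (2.27 ± 0.10), *Cpa3* from 102 to 375 (1.88 ± 0.093) and *Tpsab1* from 11.1 to 128 (3.52 ± 0.26). The Langerhans cell lectin *Cd207* fell from 173 to 74.4 (-1.22 ± 0.12). Interferon-stimulated genes had a median of 0.87, but 28 of 31 were not called (2 higher, 1 lower). The calls were *Oas1a* (from 3.75 to 33.2) and *Oasl1* (from 0.931 to 6.68), higher, and *Zbp1* (from 66.9 to 14.5, placement probability 0.94), lower. *Gbp2* was at 97.7 at D0 and 273 at D10, with a posterior probability of 0.15, and *Isg15* at 13.4 at D0 and 28.5 at D10 (0.58). Complement genes rose in 7 of 25 cases and fell in 5 (median 0.51, or -0.29 over the 2 that the study's own list names, or 0.38 with means under 1 set to 1), with *C1qb* from 87.7 to 303 (1.79 ± 0.10). *C3* was at 2538 at D0 and 1198 at D10 and was not called.

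Vessel genes rose in 19 of 33 cases, and EBSeq called none lower (median 0.76). *Apln*, made by tip cells of growing vessels, rose from 29.6 to 194 (2.71 ± 0.16), its receptor *Aplnr* from 61.2 to 234 (1.94 ± 0.12) and the general endothelial *Pecam1* from 475 to 778 (0.71 ± 0.049). *Vwf* was at 439 at D0 and 517 at D10 and *Angpt2* at 92.7 at D0 and 125 at D10, not called. Blood genes gave 2 higher of 6 measured (median 1.30, or 0.94 with means under 1 set to 1), the platelet genes *Gp1bb* and *Itga2b*, with log2 changes of 1.44 and 1.15. Of the 6, only 3 reached a mean of 10. The listed haemoglobin genes *Hba-a1*, *Hba-a2*, *Hbb-b1*, *Hbb-b2*, *Hbb-bs* and *Hbb-bt* were not among the measured genes.

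Mitosis genes mostly rose, and no gene of the mitosis or S phase list by a log2 change of 2 or more. Of 28 mitosis genes, 20 rose and 1 fell (median 0.78), and of 29 S phase genes 13 rose and 1 fell (median 0.59). *Cdk1*, the mitotic kinase, rose from 103 to 201 (0.96 ± 0.10), *Top2a* from 878 to 1395 (0.67 ± 0.036) and *Mcm5* of the replication helicase from 128 to 363 (1.51 ± 0.086). *Mki67* was at 2543 at D0 and 2766 at D10 and *Pcna* at 409 at D0 and 530 at D10, not called. *Tyms*, with the most counts of the S phase list at D0, fell from 1485 to 845 (-0.81 ± 0.036). Of 21 G1 and inhibitor genes, 7 rose and 5 fell (median 0.29, or -0.25 over the 2 that the study's own list names). *Cdkn1c* (p57) rose from 113 to 589 (2.39 ± 0.086), *Cdkn1b* (p27) fell from 992 to 645 (-0.62 ± 0.042), and *Cdkn1a* (p21) and *Trp53* were at 690.4 at D0 and 709 at D10 and at 273 at D0 and 336 at D10, not called. *Cdkn2a* was at 0.903 at D0 and 0 at D10, too low to compare.

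Most genes of protein export rose. Of 32 secretory and unfolded protein genes, 22 rose and EBSeq called none lower (median 0.65). The translocon gene *Sec61a1* rose from 899 to 2559 (1.51 ± 0.032), the coat gene *Sec24d*, needed to export collagen, from 408 to 1112 (1.45 ± 0.048) and the chaperone *Hspa5* from 1941 to 3377 (0.80 ± 0.024). The stress factor *Ddit3* was at 99.7 at D0 and 79.8 at D10 and *Xbp1* at 747 at D0 and 852 at D10, not called. Ribosomal protein genes rose in 19 of 30 cases and fell in 3, by little (median 0.38). Immediate early and stress genes rose in 9 of 24 cases and fell in 5 (median 0.16, or -0.53 for the 1 that the study's own list names), with *Hmox1* from 289 to 616 (1.09 ± 0.059) and *Egr2* falling from 223 to 102 (-1.12 ± 0.10). *Fos* was at 339 at D0 and 351 at D10 and was not called.

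Of 48 transcription factors of mesenchyme, 12 were higher, 7 lower and 29 not called (median 0.22, or 0.03 with means under 1 set to 1). *Prrx2* rose from 22.6 to 124 (2.45 ± 0.19), *Twist2* from 31.8 to 131 (2.05 ± 0.16) and *Scx*, a tendon regulator, from 20.2 to 70.3 (1.80 ± 0.21). *Prrx1* rose less, from 1961 to 2694 (0.46 ± 0.025). *Msx1* was at 88 at D0 and 100.1 at D10 and *Lhx2* at 38.2 at D0 and 34.1 at D10, not called.

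Per kilobase of the longest annotated transcript, the most abundant named RNAs changed in order. At D0 the 10 highest included *mt-Rnr1* (86379 counts per kilobase), *mt-Co1*, *Rprl3*, *mt-Co2*, *Rmrp*, *mt-Atp6*, *Rpph1*, *Eef1a1* and *Pcdhgb2* (26585). At D10 they were *Rmrp* (126206), *Rpph1*, *Gm26917*, *Col3a1* (42427), *Pcdhgb2*, *Krt10*, *Col1a2*, *Eef1a1*, *Krt1* and *Col1a1* (27852). At D10 the 10 highest named RNAs thus held 3 fibrillar collagen chains, the suprabasal keratins *Krt1* and *Krt10*, and no named mitochondrial transcript. Entries without a name have no level per kilobase here and were not ranked, so a mitochondrial transcript among them would be missed. In the D0 list, *mt-Atp6* has no window of its own, so its counts may be shared with another gene. The entry named *Gm26917*, annotated as a noncoding RNA, rose from 110732 to 260278 (1.23 ± 0.003), more counts than any other named gene had at D10. Its transcript of 5818 bases is longer than the annotated gene (chromosome 17, 39843013 to 39846341). What RNA this entry holds is therefore uncertain, and its source was not tested. *Rmrp* and *Rpph1*, the RNA parts of nuclear RNA-processing enzymes, rose from 12089 to 34707 (1.52 ± 0.0088) and from 10860 to 29591 (1.45 ± 0.0093), and *Rprl3*, a relative of *Rpph1*, fell from 12660.3 to 3841 (-1.72 ± 0.015). *Eef1a1* was at 49973 at D0 and 50722 at D10 and was not called. The entry named *Pcdhgb2* is only 110 bases long, so its level per kilobase is uncertain.

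**Figure D5:**
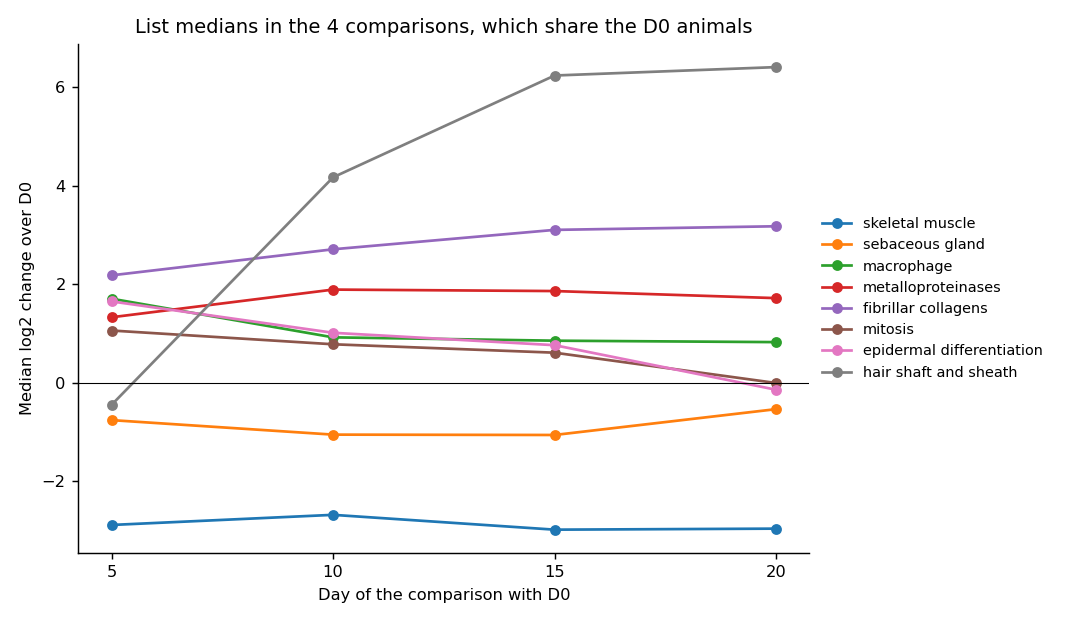
Median log2 change over D0 of 8 gene lists (vertical axis) in the D5, D10, D15 and D20 comparisons (horizontal axis, days), which share the D0 animals. The hair list goes from -0.45 at D5 to 4.17 at D10, the skeletal muscle list stays between -2.98 and -2.68, and the fibrillar collagen list lies at 2.71 at D10.

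*Tbp*, the control gene of the study's quantitative PCR, was at 156 at D0 and 112 at D10 (-0.48 ± 0.10) and was not called. Of 14 commonly used reference genes, 6 rose and 2 fell (median 0.32, or -0.47 for the 1 that the study's own list names), with *Actb* from 15066 to 23289.8 (0.63 ± 0.0087), and *Gapdh* was at 5777 at D0 and 5753 at D10 and was not called. *Xist*, expressed in females, was at 31124 at D0 and 18368 at D10, while the Y-linked *Ddx3y* and *Uty* were under 1 in both groups. *Kdm5d*, also Y-linked, was listed at 87.7 at D0 and 39.4 at D10 (log2 change of -1.15). Of these 4 genes, 2 were called lower and 2 were not called. The source of the *Kdm5d* counts in female animals was not tested.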

How the data were processed

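RNA from ear tissue of 3 *M. musculus* at D0 and 3 at D10 was sequenced as strand-specific, paired-end 50-bp reads after rRNA reduction, and the authors aligned it to mm10, estimated counts per gene with RSEM and compared groups with EBSeq at a false discovery rate of 0.05. The deposited table gives, for each gene number, posterior probabilities as a score from 0 to 1, and a raw and a shrunken ratio of the D0 mean over the D10 mean, which are the authors' own comparison. From both ratios the group means were solved, a step tested on simulated tables. That test left out genes with nearly equal group means and genes with both means at most 1. No value of a single animal is given, so no new test, spread between animals or sample left out could be computed. Errors are counting errors of the means.

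Transcripts of the deposited reference were given gene numbers from the study's list of transcripts and numbers and from their order in the reference. Sequence shared between neighbouring transcripts, measured in 25-base words, helped to decide which belonged to the same number. Symbols came from matching the transcripts with minimap2 2.31 to the GENCODE mouse annotation (GRCm38, the same build as mm10). Of 1992 known pairs of transcript and gene number held out in 10 parts, 1940 were placed at a probability of at least 0.8. Of those, 99.28% were placed at the right number. The match of transcripts to gene symbols was not checked in this way. Coordinates come from that annotation. Some genes are not reported here. Overlap between genes was measured in 50-base windows of transcripts.

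Of 1294 entries in 52 gene lists, 1250 were in the table. The members and lists were chosen with earlier results of these data known. Named genes were the 15 largest called rises and falls at a mean over both groups of at least 100, the 10 highest per kilobase in each group, the members of each list with the largest change either way or the highest mean, members of known role, and genes of the study's quantitative PCR. Alternatives were a threshold of 0.99, a mean posterior error of 0.05, a least mean of 10, a least log2 change of 1 and centring. Others were the shrunken ratio, a pseudocount of 1, only genes whose number the study's list gives, and mean transcript length. Placement at 0.95 or more and means under 1 set to 1 were added after the data were seen. Values were computed with pandas 2.3.3 and NumPy 2.4.6 under Python 3.11.15, and plots drawn with Matplotlib 3.10.9.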

Additional observations from a re-analysis of the deposited data

How the results depend on the processing

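The counts of 3492 genes called higher and 3250 lower became 3137 and 2913 at a posterior probability of 0.99, 4338 and 4170 at a mean posterior error of 0.05, and 3415 and 3128 with a least mean of 10. With a least log2 change of 1 they were 1544 and 1325. With a least mean of 10, the median of the myogenic regulators was the only list median that turned, to 0.078. Names resting on gene numbers that the study's list gives leave at most 21 members in a list and none in 11 of the 52 lists. The symbols of these genes came from the same transcript match as all others, so this setting does not check the symbols. With these names 12 medians turned: protease inhibitors to -0.83, melanocyte to 0.64, stress to -0.53 and reference genes to -0.47 (1 gene each), cell-cycle inhibitors to -0.25, basal epidermis to 0.56, macrophage to -0.072 and complement to -0.29 (2 genes each), BMP to -0.15 and bone to -0.49 (3 genes each), junctions to -0.11 (6 genes) and cartilage to 0.056 (7 genes). Another 8 kept their sign and shifted by more than 1.5-fold: hair shaft and sheath from 4.17 to 0.70 (2 genes), epidermal differentiation from 1.02 to 0.028 (5 genes), Schwann from -0.83 to -0.11 (4 genes), oxidative phosphorylation from -0.19 to -0.83 (4 genes), Wnt from 0.03 to 1.68 (3 genes), collagen folding and cross-linking from 1.32 to 2.36 (7 genes), hyaluronan from 0.92 to 1.71 (2 genes) and contractile genes from 0.61 to 1.46 (2 genes). The median of the keratin-associated proteins was 3.99 with the shrunken ratio, 3.54 with a pseudocount of 1 and 4.04 with means under 1 set to 1, and that of the neutrophil list 1.05 with the pseudocount. With a placement probability of at least 0.95 no list median turned, and the largest shift of a list median on the log2 scale was 0.26, that of the neutrophil list, to 1.42. No paired analysis was possible because the table gives group means only. What the table cannot show is the spread between the 3 animals of a group, and whether 1 animal decides a value.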

Other observations

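The families below were chosen after their values were seen. Over all genes, 15.1% were called higher and 14.1% lower, or 29.2% in all. Of 11 *Skint* genes, which code for membrane proteins of keratinocytes and thymus, 3 fell and 8 were not called. That share of calls was near the share over all genes. All 11 had a log2 change below 0 (median -1.90). *Skint1*, the member with a known role in epidermal gamma-delta T cells, was at 534 at D0 and 248 at D10, not called. *Skint5* fell from 1923 to 281 (-2.78 ± 0.053), and *Skint9* was at 626 at D0 and 134 at D10, not called. The gamma-delta T cell genes *Trdc* and *Tcrg-C1* fell (log2 changes of -2.16 and -2.42) in the same table, and a link with the *Skint* genes was not tested. Of 8 *Serpina3* genes, 6 fell and none was called higher, whereas of 25 *Serpinb* genes, intracellular protease inhibitors of epithelium, 7 rose and 9 fell. *Serpinb3a* rose from 39.6 to 547 (3.79 ± 0.14) and *Serpinb7* fell from 1101 to 129 (-3.09 ± 0.077). Of 7 stefin A genes, 4 rose and 3 were not called. Kallikrein-related peptidases, which shed cornified cells, gave 5 higher and none called lower of 11.

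Of 53 histone genes, 38 rose and none was called lower, with a median log2 change of 1.36 over the 48 with a mean of at least 10. Many of these genes share sequence, with a median of 46.6% of windows their own. Of 46 small nucleolar RNAs, 15 rose and 1 fell, with *Snora78* from 7.36 to 449 (5.93 ± 0.31). Of 1071 lincRNA genes, 13 (1.21%) rose and 85 (7.94%) fell, and of 823 antisense genes 6 (0.729%) rose and 51 (6.20%) fell beside 15.1% called higher and 14.1% called lower over all genes. The difference from coding genes at matched counts was not tested. Antisense counts rest on the strand setting used for counting, which is not given in the sources used here.

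Posterior probabilities did not follow the size of the change at low counts. Of 1158 genes with a mean of 10 to 50 and a log2 change of at least 1 either way, 654 were called and 320 had a posterior probability under 0.01. At a mean of 50 or more, 2016 of 2121 such genes were called and 9 had a posterior probability under 0.01. The cause was not tested. Olfactory and vomeronasal receptors reached a mean of 10 in 12 of 833 cases (1.44%), beside 78.9% of other coding genes.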
